A study of Mus musculus with 10 samples.

Results

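The enzymes described here are the kinases that build inositol phosphates and inositol pyrophosphates, and among them Ip6k2. The set holds 8 genes, taken by symbol from a table of 57010 mouse genes: Ipmk, Itpk1 and Ippk, the IP6 kinases Ip6k1, Ip6k2 and Ip6k3, and the PPIP5 kinases Ppip5k1 and Ppip5k2. All 8 were found and all 8 were among the 15539 genes expressed highly enough to be tested. Ip6k2 was chosen because it was higher in one of the groups, so its difference is described without a test, while the other 7 entered through their family and were tested.

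Retinas of 10 mice were profiled by bulk RNA sequencing, 14 days after an injection into the vitreous at an age of 6 to 8 weeks. In the first group 5 mice received AAV2-GFP, an adeno-associated virus vector with the capsid of serotype AAV2 that carries green fluorescent protein. In the second group 5 mice received AAV206-GFP, which carries the same reporter in a capsid named AAV206. Every mouse therefore carried a vector and its reporter, and no uninjected or sham-injected retina was analysed here. The title of the series concerns a vector specific for the retinal pigment epithelium, the cell layer behind the photoreceptors, and the comparison asks how the retina differs between the 2 capsids. The labels used here name no strain, sex, promoter or dose, and a bulk retina mixes all of its cell types.

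Inositol phosphates are made by adding phosphate groups to the inositol ring. Phospholipase C releases inositol trisphosphate (IP3) from a membrane lipid, Ipmk adds phosphates to it, Itpk1 acts on further intermediates, and Ippk completes the ring as inositol hexakisphosphate (IP6). The IP6 kinases then add a further phosphate onto a phosphate of IP6. The diphosphate group so formed makes the product the inositol pyrophosphate IP7, and the PPIP5 kinases extend IP7 to IP8. These pyrophosphates are known as signals of cellular phosphate and energy state, and Ip6k2 has been studied for a role in cell death.

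The Ip6k2 gene (ENSMUSG00000032599) lies on the plus strand of chromosome 9 at 108783796 to 108806337 in GRCm38, which is the mm10 assembly. Its paralog Ip6k1 (ENSMUSG00000032594) lies upstream on the same strand of the same chromosome, at 108002501 to 108048782. GENCODE release M21 gives Ip6k2 12 transcripts. Of these, 7 are protein-coding and begin at 5 distinct starts, 2 are marked for nonsense-mediated decay and 3 retain an intron. Reads were counted per gene, so the values below do not say from which start the Ip6k2 RNA came. The windows around 2 annotated Ip6k2 starts and the Ip6k1 start are shown because the levels of these paralogs differed in opposite directions between the groups. Each holds 300 bases, 250 before the start and 50 from it, read 5′ to 3′ from RefSeq on GRCm38.p6. Capitals mark the letters CCAAT and GGGCGG on either strand (ATTGG and CCGCCC on the reverse).
Ip6k2 first start, chr9:108783562-108783861, plus strand: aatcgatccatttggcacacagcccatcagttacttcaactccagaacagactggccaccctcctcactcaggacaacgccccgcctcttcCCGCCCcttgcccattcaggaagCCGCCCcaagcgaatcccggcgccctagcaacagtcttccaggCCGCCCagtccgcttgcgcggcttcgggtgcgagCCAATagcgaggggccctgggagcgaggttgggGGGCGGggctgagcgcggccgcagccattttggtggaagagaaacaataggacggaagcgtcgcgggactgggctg
Ip6k2 internal start, chr9:108795744-108796043, plus strand: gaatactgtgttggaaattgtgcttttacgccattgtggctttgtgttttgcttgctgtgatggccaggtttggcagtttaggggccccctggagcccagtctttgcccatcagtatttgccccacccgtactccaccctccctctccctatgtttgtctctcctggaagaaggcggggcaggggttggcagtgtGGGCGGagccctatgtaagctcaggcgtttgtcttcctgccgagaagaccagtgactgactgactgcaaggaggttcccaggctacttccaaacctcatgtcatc
Ip6k1 start, chr9:108002398-108002697, plus strand: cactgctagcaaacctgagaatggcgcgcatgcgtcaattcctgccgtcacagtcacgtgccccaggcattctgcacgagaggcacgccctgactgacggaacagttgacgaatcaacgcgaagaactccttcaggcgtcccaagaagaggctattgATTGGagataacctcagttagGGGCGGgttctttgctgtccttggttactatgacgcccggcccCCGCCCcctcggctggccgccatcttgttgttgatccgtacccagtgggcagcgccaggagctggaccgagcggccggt

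The window of the first Ip6k2 start had 64.3% G and C, 1 CCAAT and 4 GGGCGG, against a median of 52.7% G and C over all 32817 mouse windows of the same length. The internal Ip6k2 window had 54.7% G and C, no CCAAT and 1 GGGCGG. The Ip6k1 window had 60.0% G and C, with 1 CCAAT and 2 GGGCGG, and also held 1 CACGTG. Such matches are common: CCAAT occurred in 37.4% of all windows, GGGCGG in 35.6% and CACGTG in 7.15%. All 8 kinases matched the RefSeq table, with 10 windows. None of the 10 held TGACGTCA or TATAAA, which occurred in 1.79% and 13.6% of all windows, and GAANNTTC, present in 7.86% of all windows, was found once, at Ppip5k1. These are matches of letters in short windows, and binding was not measured.

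The libraries held between 10989843 and 12752604 estimated counts, so that 3 counts correspond to 0.232 to 0.274 CPM, the count scaled to a common library size. Rod photoreceptor markers were abundant in every retina: Sag, which encodes rod arrestin, averaged 3336 ± 82.9 CPM in AAV2-GFP retinas and 3386 ± 204 CPM in AAV206-GFP retinas (SD, n = 5). In the marker counts that follow, genes that fell, were lower or were past the test had an edgeR adjusted p under 0.05. Of all tested genes 11.2% did. Some libraries stood apart. Interferon response genes summed to 453 CPM in AAV2-GFP replicate 1 and 604 CPM in replicate 4, against 83.0 to 151 CPM in the other 3 AAV2-GFP retinas and 84.1 to 109 CPM with AAV206-GFP, and 7 of the 8 tested fell. Microglia and macrophage markers reached 268 CPM in AAV2-GFP replicate 1, and the other libraries held 19.4 to 49.0 CPM, and 2 of 7 tested fell. Summed Y-linked transcripts were 114 CPM in AAV206-GFP replicate 4 and 226 to 246 CPM elsewhere. Erythrocyte markers summed to 67.8 to 85.8 CPM with AAV2-GFP and 101 to 319 CPM with AAV206-GFP, with 4 of 5 past the test. Lens markers summed to 13.6 to 37.8 CPM with AAV2-GFP. They summed to 15.3 CPM in AAV206-GFP replicate 1 and 1.92 to 3.65 CPM in the other AAV206-GFP retinas. Of the lens genes, 2 of 3 tested were lower with AAV206-GFP, and Lim2 was at 0. Pigment epithelium markers stayed at 8.98 to 25.5 CPM in both groups together, with 1 of 4 tested lower with AAV206-GFP, and Rpe65 averaged 1.75 and 1.35 CPM. Skeletal muscle markers summed to 1.88 to 4.97 CPM, with Myh2 and Myh4 at 0. T and NK lymphocyte markers summed to 17.4 CPM in AAV2-GFP replicate 1 and to 0.0897 to 0.949 CPM in all other libraries. None of these 8 lymphocyte genes was abundant enough to be tested.

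Ip6k2 was roughly doubled with AAV206-GFP. In the retinas given AAV2-GFP its level was 174, 192, 186, 179.6 and 167 CPM in replicates 1 to 5. In those given AAV206-GFP it was 486, 371, 369, 328 and 421 CPM. Every AAV206-GFP retina lay above every AAV2-GFP retina, and the lowest of the first exceeded the highest of the second by a wide margin. The means were 179.5 ± 9.96 CPM and 395 ± 60.8 CPM (SD, n = 5 each), a 2.20-fold difference, and the fitted log2 fold change was 1.14 with a standard error (SE) of 0.09. In bulk tissue, more cells of a type that expresses the gene and more RNA per cell cannot be told apart. AAV206-GFP replicate 1 was the highest and replicate 4 the lowest of their group, and the coefficient of variation was 15.4% with AAV206-GFP against 5.55% with AAV2-GFP.

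The library values that stood apart were set beside Ip6k2. The AAV2-GFP retinas with high interferon response genes, replicates 1 and 4, had 174 and 179.6 CPM of Ip6k2, inside the range of the other 3. Without these 2 retinas the log2 fold change of Ip6k2 was 1.11. It was 1.20 without AAV206-GFP replicate 4 and 1.05 without AAV206-GFP replicate 1, the lowest and highest of all single omissions being these same values. Erythrocyte markers summed to 256, 125, 319, 101 and 141 CPM in AAV206-GFP replicates 1 to 5. Ip6k2 measured 486, 371, 369, 328 and 421 CPM in the same order. Both were lowest of their group in replicate 4, and for both every AAV206-GFP retina lay above every AAV2-GFP retina. Lens markers were highest of that group in AAV206-GFP replicate 1, at 15.3 CPM, as Ip6k2 was. What part any of these values had in the Ip6k2 difference was not tested. Among 2266 tested genes averaging 100 CPM or more, 1 had a larger increase than Ip6k2 and 3 had a larger change in either direction. Ip6k2 was chosen for its rise, so this rank restates that choice. The limit of 100 CPM leaves out scarcer genes, such as Hhipl1 with a log2 fold change of 1.23. No value of Ip6k2 carried decimals in any library, where decimals mark reads that were divided between genes, and no exon of it overlaps an exon of another annotated gene.

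**Figure D1:**
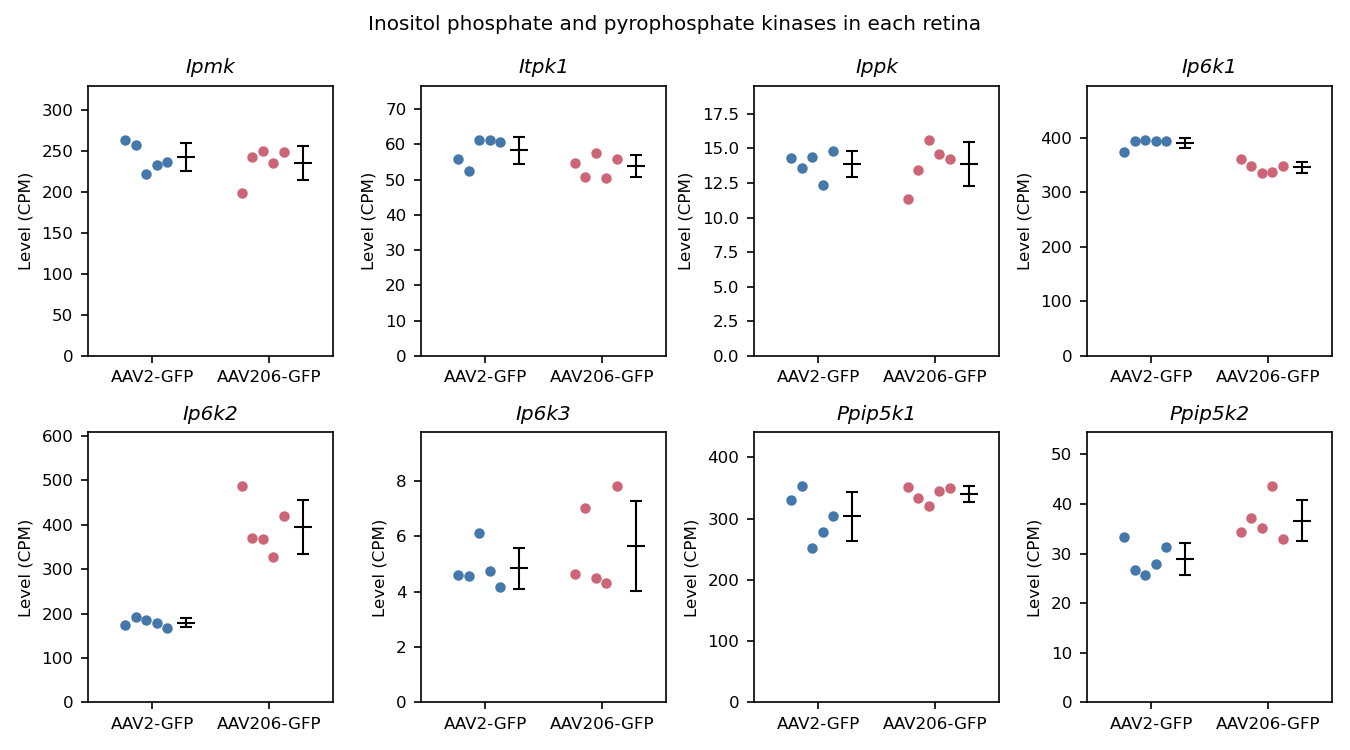
Level of each kinase in CPM (vertical axes, each from 0) in the 5 AAV2-GFP and 5 AAV206-GFP retinas. Points are single retinas in the order of their replicate number, and bars give the mean and SD. Ip6k2 separates the groups widely (167 to 192 against 328 to 486 CPM), Ip6k1 narrowly and in the other direction (374 to 396 against 336 to 360.3 CPM), and the other 6 kinases overlap.

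Among the 7 kinases other than Ip6k2, 1 rose, 1 fell and 5 did not pass the test. Passing here means an adjusted p below 0.05 in edgeR's quasi-likelihood test, adjusted over all 15539 genes by the Benjamini-Hochberg method. By that measure 11.2% of all tested genes passed, 5.95% higher and 5.30% lower with AAV206-GFP, and 2 of 7 kinases is 28.6%. The groups did not overlap for 1 of the 7 (14.3%), against 9.78% of all tested genes. The median log2 fold change of the 7 was -0.0024, beside -0.0095 over all tested genes. With so few genes, these shares describe the family and do not set it apart.

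Ip6k1, the paralog most abundant per length in the AAV2-GFP retinas, fell slightly. It measured 374, 394, 396, 394 and 394 CPM with AAV2-GFP and 360.3, 349, 336, 337 and 348 CPM with AAV206-GFP. The groups did not overlap, although AAV2-GFP replicate 1 lay close to the highest AAV206-GFP retina. Means were 390.3 ± 9.26 and 346 ± 9.93 CPM (SD, n = 5 each), a log2 fold change of -0.17 (SE 0.05, edgeR adjusted p = 0.0366). The call was lost, with adjusted p between 0.0519 and 0.0867 by edgeR, when AAV2-GFP replicate 2, 4 or 5 or AAV206-GFP replicate 2, 3, 4 or 5 was left out. It was also lost without the filter on low counts (edgeR adjusted p = 0.0840) and without AAV2-GFP replicates 1 and 4 together (0.0898). Ip6k1 shares 942 bases of exon with the annotated gene Gm20662 on the same strand, and its values carried decimals in all 10 libraries. Gm20662 itself averaged 0.573 and 0.441 CPM. The 2 genes summed to 375 to 397 CPM against 336 to 360.4 CPM, so the groups also stayed apart when both genes were counted together. Other divisions of these reads were not computed.

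Ip6k3, the remaining paralog, was scarce in these retinas. Its level was 4.61, 4.58, 6.11, 4.76 and 4.19 CPM with AAV2-GFP and 4.63, 7.02, 4.48, 4.31 and 7.80 CPM with AAV206-GFP. Replicates 2 and 5 of AAV206-GFP were the highest, and the other 3 lay among the AAV2-GFP values. The log2 fold change was 0.22 with an SE of 0.20 (edgeR adjusted p = 0.519), so a change of the size seen for Ip6k1 would not be detectable at this level.

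The make-up of the IP6 kinase transcripts was compared per length, as CPM per kilobase of annotated exon, since CPM alone favours long genes. Ip6k2 supplied 41.7, 43.0, 41.8, 41.3 and 39.6% of the summed transcripts of Ip6k1, Ip6k2 and Ip6k3 in the AAV2-GFP retinas. It supplied 67.5, 61.7, 62.8, 60.0 and 64.5% in the AAV206-GFP retinas. Mean shares were 41.5 ± 1.23% and 63.3 ± 2.89% (SD, n = 5 each), and those of Ip6k1 went from 56.6 ± 1.32% to 35.1 ± 2.81%. Ip6k3 held 1.94 ± 0.261% and 1.58 ± 0.439%. The sum over the 3 genes was 106 ± 3.40 CPM per kilobase with AAV2-GFP and 153 ± 16.4 with AAV206-GFP. Ip6k1 was the leading IP6 kinase transcript in all 5 AAV2-GFP retinas and Ip6k2 in all 5 AAV206-GFP retinas. These shares contain Ip6k2, which was chosen for its rise, and are given as a description.

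**Figure D2:**
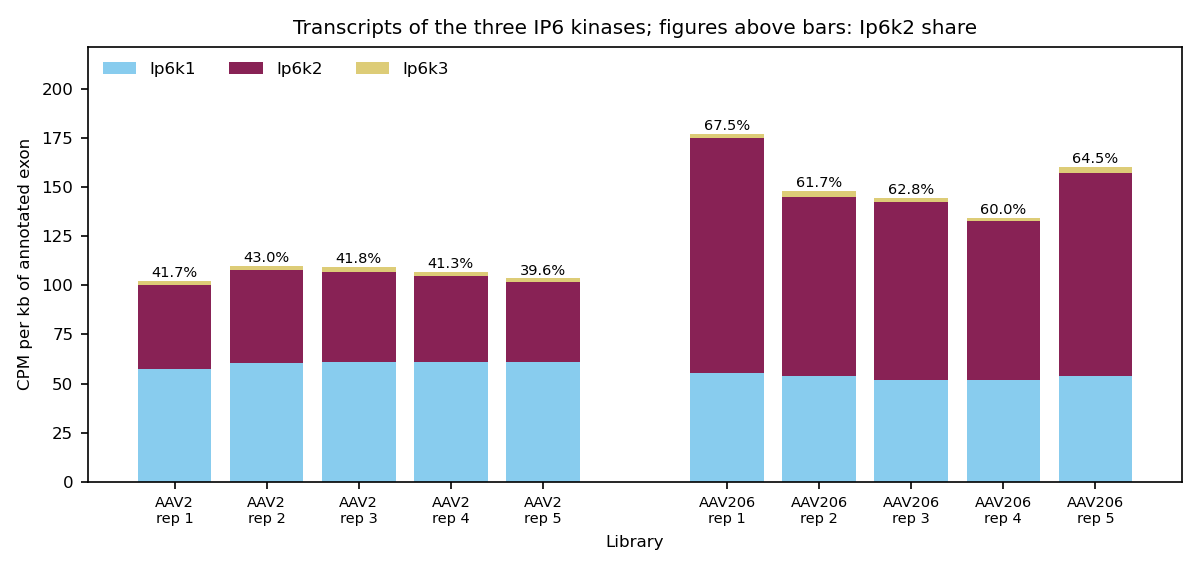
Summed level of Ip6k1, Ip6k2 and Ip6k3 in CPM per kilobase of annotated exon (vertical axis) in each of the 10 retinas, with stacked segments for the 3 genes and the Ip6k2 share printed above each bar. The Ip6k2 share lies between 39.6 and 43.0% with AAV2-GFP and between 60.0 and 67.5% with AAV206-GFP.

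Of the PPIP5 kinases, which act on the product of the IP6 kinases, Ppip5k2 rose and Ppip5k1 did not pass the test. Ppip5k2 (ENSMUSG00000040648, chromosome 1, 97706048 to 97770411, minus strand) measured 33.3, 26.7, 25.6, 27.8 and 31.3 CPM with AAV2-GFP. It measured 34.4, 37.1, 35.1, 43.5 and 33.0 CPM with AAV206-GFP. The groups met at their edges, AAV2-GFP replicate 1 lying just above AAV206-GFP replicate 5. Means were 28.9 ± 3.23 and 36.6 ± 4.13 CPM (SD, n = 5 each), a log2 fold change of 0.34 (SE 0.09, edgeR adjusted p = 0.0306). Leaving out AAV2-GFP replicate 2, 3 or 4 or AAV206-GFP replicate 2 or 4 ended the call, with edgeR adjusted p between 0.0592 and 0.0786. Its exons overlap those of Gin1 on the opposite strand by 84 bases, and Gin1 did not pass the test (log2 fold change 0.12, SE 0.15).

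Ppip5k1 (ENSMUSG00000033526, chromosome 2, 121310561 to 121355396, minus strand) was the more abundant of the pair. Its level was 331, 352, 252, 279 and 304 CPM with AAV2-GFP and 351, 333, 320.3, 345 and 349 CPM with AAV206-GFP. The AAV206-GFP retinas lay close together, within the upper part of the AAV2-GFP range. The log2 fold change was 0.16 (SE 0.08, edgeR adjusted p = 0.194). Its values carried decimals in all 10 libraries, and 272 bases of its exons overlap Map1a on the opposite strand. Map1a had a log2 fold change of 0.03.

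None of the 3 kinases that lead up to IP6 passed the test by edgeR, DESeq2 or limma-voom, after adjustment or at an unadjusted p under 0.05. Ipmk (ENSMUSG00000060733, chromosome 10, 71347763 to 71433327, plus strand) measured 263, 258, 221, 233 and 236 CPM with AAV2-GFP. With AAV206-GFP it measured 199, 243, 249.6, 236 and 248 CPM. Apart from AAV206-GFP replicate 1, which was the lowest of all 10 retinas, the AAV206-GFP values lay inside the AAV2-GFP range. The means were 242 ± 17.5 and 235 ± 20.99 CPM, and the log2 fold change was -0.04 (SE 0.07, edgeR adjusted p = 0.731).

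Itpk1 (ENSMUSG00000057963, chromosome 12, 102568582 to 102704930, minus strand) measured 55.9, 52.6, 61.2, 61.2 and 60.6 CPM with AAV2-GFP and 54.8, 50.7, 57.5, 50.3 and 55.8 CPM with AAV206-GFP. The groups overlapped, and the log2 fold change was -0.11 (SE 0.07, edgeR adjusted p = 0.276). Ippk (ENSMUSG00000021385, chromosome 13, 49421249 to 49464573, plus strand) measured 14.3, 13.6, 14.4, 12.3 and 14.8 CPM with AAV2-GFP and 11.4, 13.4, 15.6, 14.6 and 14.2 CPM with AAV206-GFP. AAV206-GFP replicate 1 was again the lowest, and the log2 fold change was -0.0024 (SE 0.11, edgeR adjusted p = 0.992). The enzymes that make IP6 thus had log2 fold changes of -0.11 to -0.0024, each within 2 SE of 0, while Ip6k2 had 1.14.

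Ranked by level per kilobase of annotated exon, the kinases of the AAV2-GFP retinas followed the order Ip6k1, Ip6k2, Ipmk, Ppip5k1, Itpk1, Ippk, Ip6k3 and Ppip5k2. Their means were 60.2 ± 1.43, 44.1 ± 2.45, 34.2 ± 2.47, 24.3 ± 3.20, 17.6 ± 1.18, 2.87 ± 0.199, 2.07 ± 0.314 and 2.01 ± 0.225 CPM per kilobase (SD, n = 5 each). Neighbours in this order had separate ranges, except that Ip6k3 overlapped both Ippk and Ppip5k2. With AAV206-GFP Ip6k2 moved to the top, at 97.2 ± 14.9 CPM per kilobase, followed by Ip6k1 at 53.3 ± 1.53. Ipmk at 33.1 ± 2.96 and Ppip5k1 at 27.2 ± 1.03 then overlapped, Itpk1 followed at 16.2 ± 0.957, and Ippk, Ppip5k2 and Ip6k3, at 2.87 ± 0.331, 2.55 ± 0.287 and 2.41 ± 0.699, overlapped their neighbours. When the length of the longest transcript was used instead, Ip6k2 again went from the second place, at 63.7 CPM per kilobase, to the first, at 140.1. With that length Ppip5k1 took the third place, at 54.9 and 61.4 CPM per kilobase, above Ipmk, and Ppip5k2 the sixth, at 4.64 and 5.87. In the AAV2-GFP retinas the range of Ppip5k1 then overlapped those of Ip6k2 and Ipmk.

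The other genes of the pathway were read from 8 lists with 64 genes, of which 57 could be tested. Of these 57, 5 rose, 6 fell and 46 did not pass, so 19.3% passed beside 11.2% of all tested genes. The groups did not overlap for 10 of the 57 (17.5%, beside 9.78% of all tested genes), and their median log2 fold change was -0.01. The changes ran in both directions and were spread over 7 of the 8 lists.

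**Figure D3:**
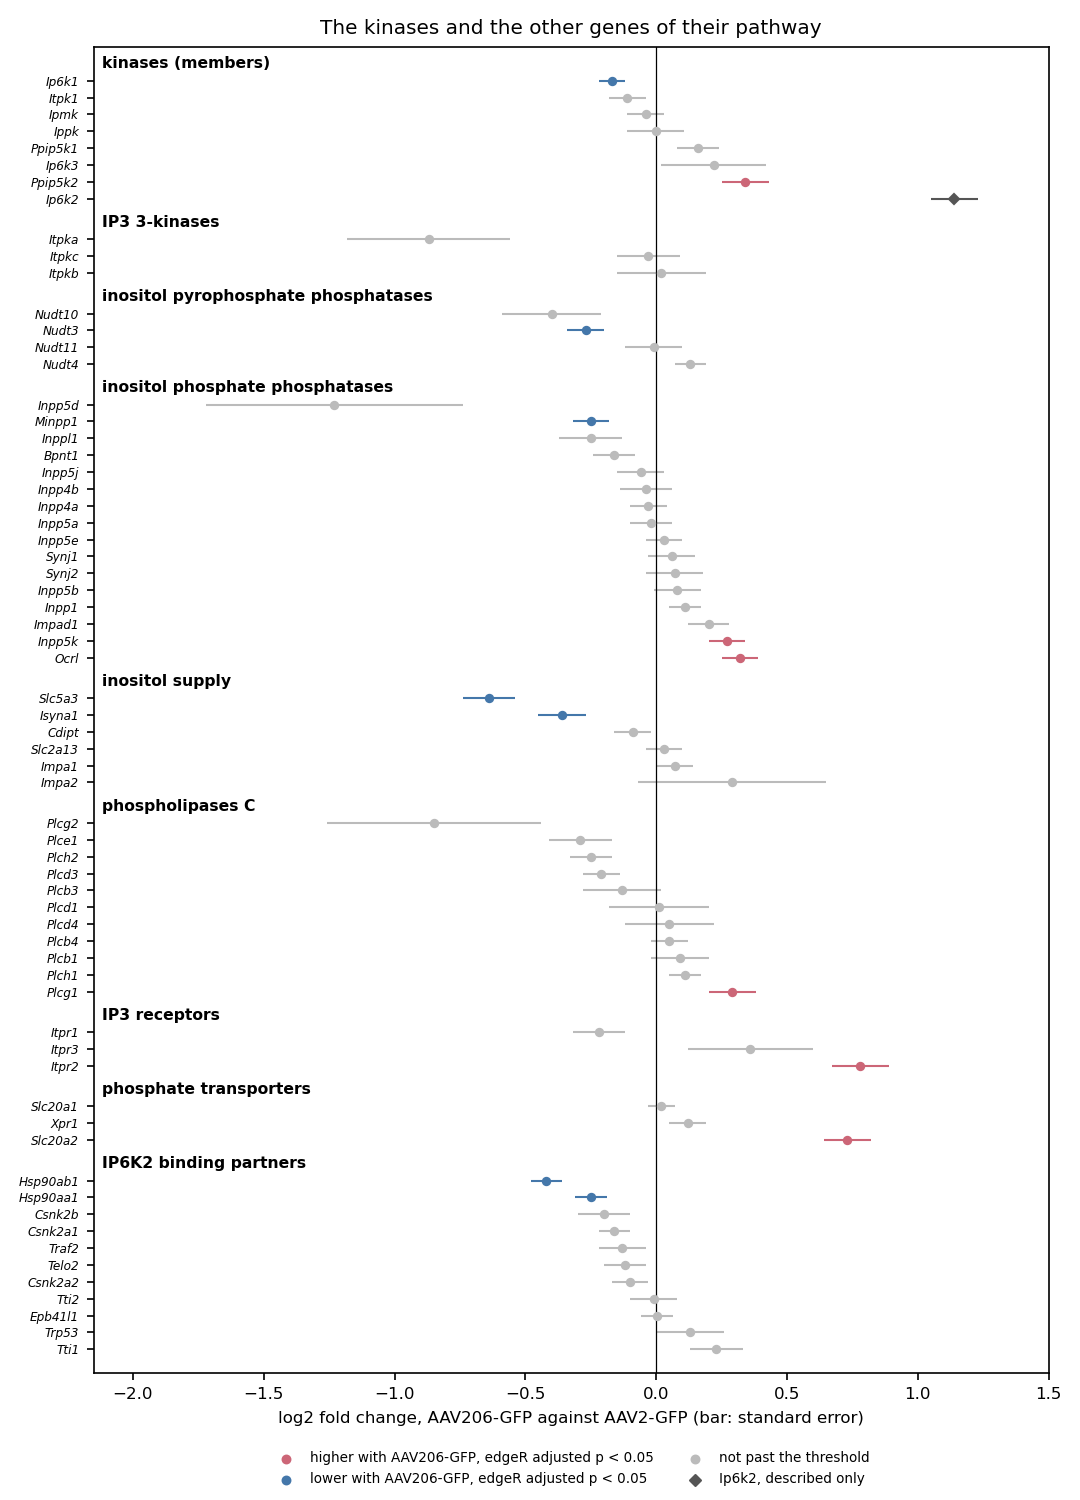
Log2 fold change of AAV206-GFP against AAV2-GFP (horizontal axis) for the 8 kinases and the 57 tested pathway genes, grouped by list. Bars are standard errors, and colours mark genes past an edgeR adjusted p of 0.05. Ip6k2, at 1.14, is shown as a description, and the pathway genes that passed lie between -0.64 (Slc5a3) and 0.78 (Itpr2).

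Upstream of the kinases, the inositol transporter Slc5a3 and the synthase Isyna1 were lower with AAV206-GFP. Of 6 tested genes of inositol supply 2 fell, none rose and 4 did not pass, so 33.3% passed beside 11.2% of all tested genes. Their median log2 fold change was -0.03. Slc5a3, the sodium-coupled transporter that carries inositol into cells, measured 38.9, 37.3, 36.1, 37.0 and 42.2 CPM with AAV2-GFP and 18.6, 25.7, 26.1, 28.6 and 24.0 CPM with AAV206-GFP. All AAV206-GFP retinas lay below all AAV2-GFP retinas, replicate 1 the farthest. Means were 38.3 ± 2.40 and 24.6 ± 3.75 CPM (SD, n = 5 each), a log2 fold change of -0.64 (SE 0.10, edgeR adjusted p = 0.000837). Isyna1, the synthase that makes inositol phosphate from glucose phosphate, measured 43.9, 49.0, 53.0, 44.4 and 47.6 CPM and 34.4, 39.3, 33.9, 32.5 and 44.7 CPM in the same order. Only AAV206-GFP replicate 5 reached into the AAV2-GFP range. The log2 fold change of Isyna1 was -0.36 (SE 0.09, edgeR adjusted p = 0.0175). Slc5a11 and Miox, also on this list, were too low to be tested.

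In the step that releases IP3, 1 of 11 tested phospholipase C genes rose by edgeR and none fell (9.09%, beside 11.2% of all tested genes). Their median log2 fold change was 0.01. DESeq2 called 3 of the 11, adding Plch2 (log2 fold change -0.25, DESeq2 adjusted p = 0.0253 and edgeR adjusted p = 0.0580) and Plcd3 (-0.21, 0.0432 and 0.0713) as lower, both named after their values were seen. The gene that rose was Plcg1, a phospholipase activated by receptor tyrosine kinases, with 43.4, 47.3, 35.3, 43.3 and 39.6 CPM with AAV2-GFP. It had 59.6, 49.5, 49.0, 50.1 and 47.4 CPM with AAV206-GFP, and the groups touched without overlapping. The log2 fold change was 0.29 (SE 0.09, edgeR adjusted p = 0.0382). Without AAV2-GFP replicate 3, 4 or 5 or AAV206-GFP replicate 1, 2, 3 or 4 it no longer passed (edgeR adjusted p 0.0597 to 0.0874), nor without AAV2-GFP replicates 1 and 4 together (0.0806). The IP3 receptors are calcium channels of the endoplasmic reticulum that IP3 opens, and 1 of 3 rose (33.3%, beside 11.2% of all tested genes). This was Itpr2, at 23.4, 20.4, 17.5, 16.9 and 16.2 CPM with AAV2-GFP and 29.1, 38.0, 34.4, 28.8 and 31.5 CPM with AAV206-GFP. Its groups were clearly separate, with means of 18.9 ± 2.98 and 32.4 ± 3.88 CPM (SD, n = 5 each) and a log2 fold change of 0.78 (SE 0.11, edgeR adjusted p = 0.000423).

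The kinases that convert IP3 along the other branch, the IP3 3-kinases, gave 0 calls among 3 tested genes by edgeR, by DESeq2 and by limma-voom. Of all tested genes 11.2% passed by edgeR. At an unadjusted p under 0.05 each tool passed 1 of these 3 kinases. The least abundant, Itpka, averaged 1.94 ± 0.660 CPM in AAV2-GFP retinas and 1.06 ± 0.230 CPM in AAV206-GFP retinas (SD, n = 5), with overlapping groups, and had the list's most negative log2 fold change (-0.87, SE 0.31, edgeR adjusted p = 0.0860). It is named after its values were seen. The most abundant were Itpkc, at 15.5 ± 2.18 and 15.1 ± 1.88 CPM, and Itpkb, at 13.3 ± 1.22 and 13.5 ± 3.65 CPM (SD, n = 5 each). Their log2 fold changes were -0.03 (SE 0.12, edgeR adjusted p = 0.884) and 0.02 (SE 0.17, edgeR adjusted p = 0.963). Itpkc values carried decimals in all 10 libraries.

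The enzymes that cleave the diphosphate again are the Nudt phosphatases, of which 1 of 4 fell and none rose. That is 25.0%, beside 11.2% of all tested genes, and their median log2 fold change was -0.14. Nudt3, which hydrolyses inositol pyrophosphates, measured 119, 116, 131, 130.1 and 119 CPM with AAV2-GFP and 107, 99.7, 101, 87.5 and 114 CPM with AAV206-GFP. The groups did not overlap, and AAV206-GFP replicate 4 was the lowest. Means were 123 ± 6.78 and 102 ± 9.93 CPM (SD, n = 5 each), a log2 fold change of -0.27 (SE 0.07, edgeR adjusted p = 0.0230). Without AAV2-GFP replicate 3 or 4 or AAV206-GFP replicate 2, 3 or 4 it did not pass (edgeR adjusted p 0.0507 to 0.0647), nor without AAV2-GFP replicates 1 and 4 together (0.0729).

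Of 16 phosphatases listed around inositol phosphates and inositol lipids, including the nucleotide phosphatase Impad1, 2 rose, 1 fell and 13 did not pass. This is 18.8% passing, beside 11.2% of all tested genes, and the median log2 fold change was 0.01. Ocrl, a phosphatase of inositol lipids that is mutated in Lowe syndrome, measured 84.4, 87.1, 77.9, 82.4 and 84.2 CPM with AAV2-GFP and 110.3, 106, 97.8, 113 and 91.7 CPM with AAV206-GFP. All AAV206-GFP retinas were higher, and the log2 fold change was 0.32 (SE 0.07, edgeR adjusted p = 0.00609). Inpp5k, a phosphatase of the same family, had 55.9, 59.2, 49.96, 49.3 and 53.6 CPM and then 66.0, 68.1, 57.3, 68.5 and 62.6 CPM. The groups overlapped at AAV206-GFP replicate 3, and the log2 fold change was 0.27 (SE 0.07, edgeR adjusted p = 0.0259). Its call was lost without AAV2-GFP replicate 3, 4 or 5 or AAV206-GFP replicate 1, 2 or 4 (edgeR adjusted p 0.0503 to 0.0806) and without AAV2-GFP replicates 1 and 4 together (0.116). Minpp1, which removes phosphates from IP6 and related molecules, had 43.1, 41.0, 41.5, 44.3 and 41.2 CPM with AAV2-GFP and 33.8, 34.6, 38.7, 34.1 and 35.9 CPM with AAV206-GFP. These groups did not overlap, and the log2 fold change was -0.25 (SE 0.07, edgeR adjusted p = 0.0220). Minpp1 values carried decimals in 6 libraries. It did not pass without AAV2-GFP replicate 4 or AAV206-GFP replicate 2 or 4 (edgeR adjusted p 0.0507 to 0.0648), nor without AAV2-GFP replicates 1 and 4 together (0.123).

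Phosphate transporters were listed because inositol pyrophosphates are known to regulate cellular phosphate, in part through the exporter Xpr1. Of 3 tested transporters 1 rose and none fell (33.3%, beside 11.2% of all tested genes), with a median log2 fold change of 0.12. Slc34a1, Slc34a2 and Slc34a3 were too low to be tested. Slc20a2, a sodium-coupled phosphate importer, measured 31.6, 34.9, 36.8, 35.8 and 40.9 CPM with AAV2-GFP and 62.8, 51.0, 61.4, 68.2 and 54.9 CPM with AAV206-GFP. The groups were well separated, with means of 36.0 ± 3.36 and 59.7 ± 6.77 CPM (SD, n = 5 each) and a log2 fold change of 0.73 (SE 0.09, edgeR adjusted p = 7.8e-05). After Itpr2, this was the largest change among the pathway genes that rose.

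Of 11 genes for proteins known to bind IP6K2 or to act with it, 2 fell, none rose and 9 did not pass. The share that passed was 18.2%, beside 11.2% of all tested genes, and the median log2 fold change was -0.12. Both that fell encode cytosolic HSP90, the chaperone that binds IP6K2 and restrains its activity. Hsp90ab1 measured 589.7, 574, 656, 643 and 584 CPM with AAV2-GFP and 449.7, 449.6, 464, 442 and 464 CPM with AAV206-GFP. The AAV206-GFP values were lower and closer together, with means of 609 ± 37.3 and 454 ± 9.86 CPM (SD, n = 5 each) and a log2 fold change of -0.42 (SE 0.06, edgeR adjusted p = 0.000175). Hsp90aa1, the inducible form, measured 2072, 2049.5, 2012, 2075 and 1976 CPM and then 1492.5, 1645, 1841, 1747 and 1853 CPM. Its groups were also separate, with AAV206-GFP replicate 1 the lowest, and its log2 fold change was -0.25 (SE 0.06, edgeR adjusted p = 0.0159). Hsp90aa1 values carried decimals in all 10 libraries, and it did not pass without AAV206-GFP replicate 2 (edgeR adjusted p = 0.0525) or without AAV2-GFP replicates 1 and 4 together (0.0815).

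The genes on either side of Ip6k2 on chromosome 9 were examined to see whether its difference was shared along the chromosome. The 3 nearest tested protein-coding genes on each side were Arih2, Slc25a20 and Prkar2a before it and Nckipsd, Celsr3 and Slc26a6 after it. None of the 6 passed by edgeR, DESeq2 or limma-voom, with 1 at an unadjusted p under 0.05 by each tool, and the groups of all 6 overlapped. Of all tested genes 11.2% passed by edgeR, and the groups did not overlap for 9.78%. Nckipsd, which begins 2.03 kb beyond the end of Ip6k2, had means of 30.6 ± 2.34 and 30.0 ± 3.69 CPM (SD, n = 5 each) and a log2 fold change of -0.03. Prkar2a, 33.4 kb before it, had 170.5 ± 12.5 and 178 ± 11.9 CPM and a log2 fold change of 0.07. The log2 fold changes of the 6 ran from -0.23 at Slc26a6 to 0.15 at Celsr3, with edgeR adjusted p between 0.171 and 0.874.

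**Figure D4:**
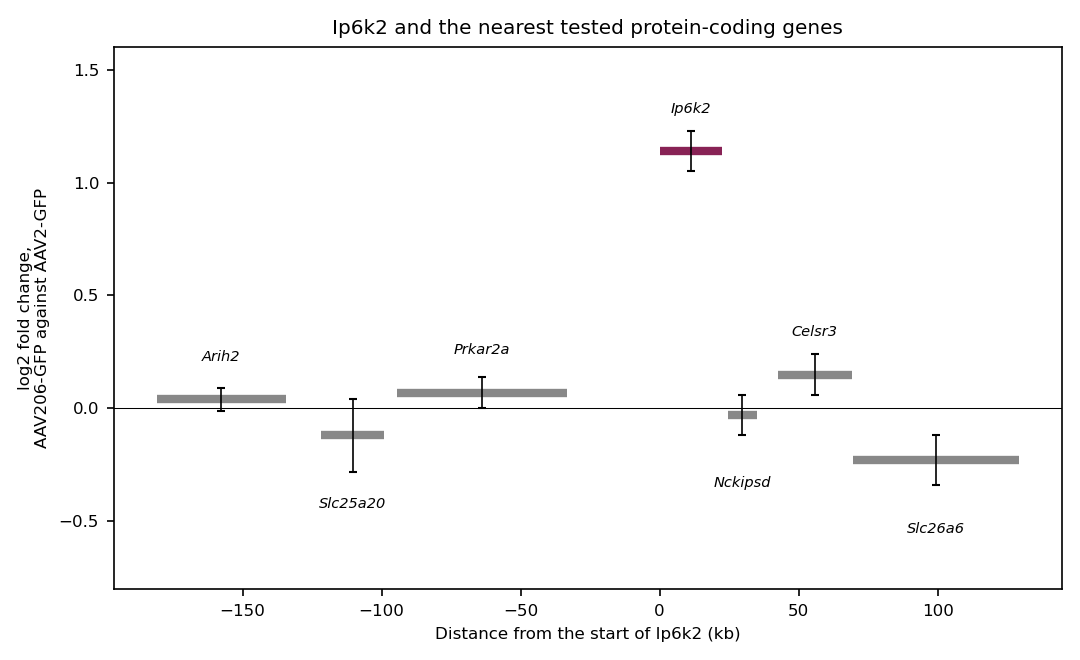
Log2 fold change of AAV206-GFP against AAV2-GFP (vertical axis) for Ip6k2 and the 3 nearest tested protein-coding genes on each side, placed by distance in kilobases from the start of Ip6k2 (horizontal axis). Horizontal bars span each gene and vertical bars are standard errors. Ip6k2 stands at 1.14 and its 6 neighbours between -0.23 and 0.15.

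Genes whose levels followed Ip6k2 were sought among 14957 named genes that were tested and averaged 1 CPM or more, by Pearson's r of log2(CPM + 1) over the 10 libraries. The 5 most alike were Cirbp (r = 0.988), Ubxn11 (0.978), Ebpl (0.978), Impdh1 (0.973) and Hhipl1 (0.973). This measure reads the same group difference for which Ip6k2 was chosen, so these are genes that were also higher with AAV206-GFP. Cirbp, a cold-inducible RNA-binding protein, went from 123 ± 3.61 to 217 ± 28.8 CPM (SD, n = 5 each) and was highest in AAV206-GFP replicates 1 and 5, as Ip6k2 was. Impdh1, an enzyme of guanine nucleotide synthesis, went from 535 ± 26.3 to 681 ± 33.4 CPM. Ebpl went from 86.8 to 140.6 CPM, Ubxn11 from 14.8 to 29.4 CPM and Hhipl1 from 4.07 to 9.56 CPM.

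A second measure used only how each retina differed from its own group mean. By these deviations the 5 most alike were Stk11 (r = 0.974), Slc6a7 (0.967), Haghl (0.954), Wipi2 (0.951) and Cuedc1 (0.943). Of them Cuedc1 also rose, from 118 to 153 CPM (log2 fold change 0.38), and had an r of 0.951 over all 10 libraries. Stk11, the kinase LKB1, had a log2 fold change of -0.10 and an r of -0.21 over all 10 libraries. In these libraries Stk11 varied with Ip6k2 within the groups and not between them. The 5 genes were picked as the highest r by deviations among 14957 genes, so their high values restate that choice. Cirbp had an r of 0.839 by the deviations, and Hhipl1 of 0.514. The 10 libraries carry the 2 group means, so these values rest on few independent points, and AAV206-GFP replicates 1 and 4, the highest and lowest Ip6k2 values of that group, weigh most in them. Stk11 and Haghl values carried decimals in all 10 libraries.

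**Figure D5:**
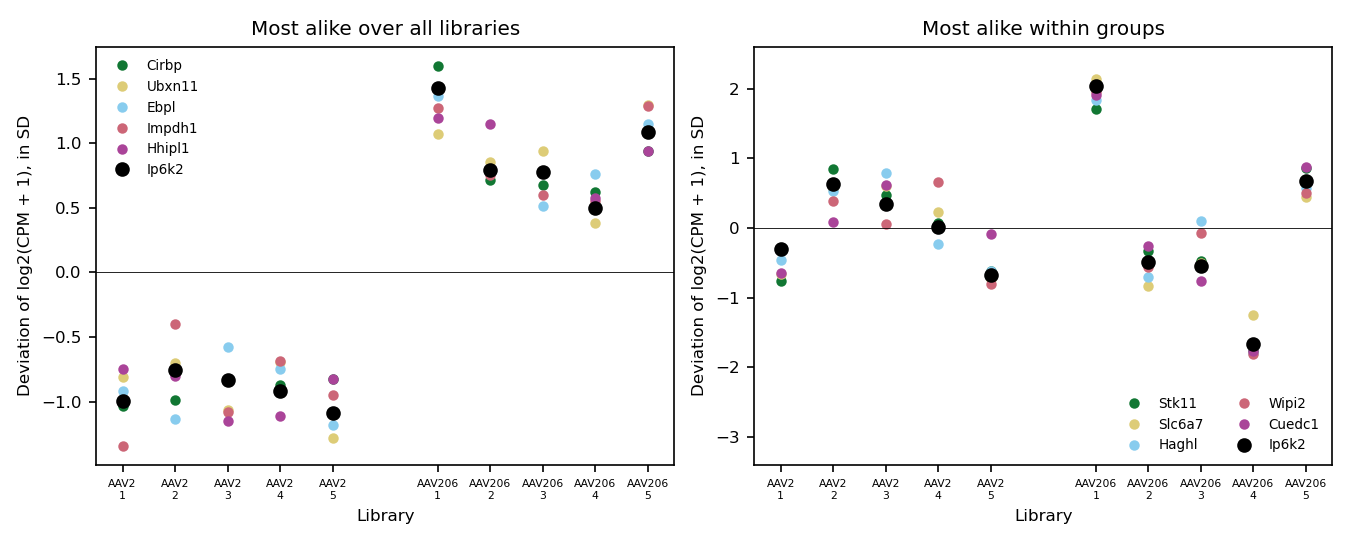
Ip6k2 (black) and the 5 genes most like it over all 10 libraries (left) or by deviation from the group means (right). The vertical axis gives log2(CPM + 1) in SD units from the mean of all libraries (left) or of the library's own group (right), and the horizontal axis the libraries. On the left all 6 genes lie below 0 with AAV2-GFP and above 0 with AAV206-GFP, and on the right all 6 are highest in AAV206-GFP replicate 1 and lowest in AAV206-GFP replicate 4.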

How the data were processed

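The deposited table holds estimated counts per gene for 10 retinas, made by the authors and not scaled between libraries; 5.95% of its values carry decimals. The submitters' processing notes name STAR 2.7.10b, RSEM 1.3.1 and mm10; the annotation and the use of strand are not given in the sources used here. Groups came from the sample titles. Symbols, coordinates and exon lengths came from GENCODE M21, which named 91.3% of the 57010 rows.

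Counts were rounded and fitted with edgeR 4.0.16 in R 4.3.3, checked on simulated data: filterByExpr (minimum count 10), TMM scaling, quasi-likelihood test, no covariates, Benjamini-Hochberg adjustment over 15539 genes, threshold 0.05. CPM uses TMM-adjusted library sizes, the SE is the absolute log2 fold change over the square root of F, and the common biological coefficient of variation was 0.135. The level of 3 counts covers counting error only. Alternatives were other scalings and filters, DESeq2 1.42.0, limma-voom (limma 3.58.1), values not rounded, a replicate block, other lengths and omitted retinas; omitting AAV2-GFP replicates 1 and 4 together was chosen after seeing the data.

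The members and lists were chosen with earlier results of these data known. Named genes were all 8 kinases; the passing genes of each pathway list, at most 4 per direction by smallest p, or else its 2 most abundant; the 5 genes most like Ip6k2 by each of 2 measures; and 3 neighbours on each side. Marker genes named were chosen after their values were seen. Marker lists covered rods, pigment epithelium, lens, erythrocytes, microglia and macrophages, T and NK lymphocytes, skeletal muscle and the interferon response. The summed rod list is not reported here.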

Additional observations from a re-analysis of the deposited data

Results flagged for a closer look

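In 44 combinations of a group and a gene, the highest or lowest retina was compared with its group by Dixon's ratio of gap to range, with a critical value of 0.71 for 5 retinas. Chance flags about 1 in 20 groups, here about 2.2, and 3 retinas stood out. Ip6k1 measured 374 CPM in AAV2-GFP replicate 1 and 394 to 396 CPM in the other 4 (ratio 0.901). Ipmk measured 199 CPM in AAV206-GFP replicate 1 and 236 to 249.6 CPM in the other 4 (0.726). Plcg1 measured 59.6 CPM in the same AAV206-GFP retina and 47.4 to 50.1 CPM in the other 4 (0.781).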

How the results depend on the processing

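The log2 fold change of Ip6k2 was 1.05 to 1.20 with single retinas left out and at least 1.11 under every other setting run. The difference in its share of IP6 kinase transcripts was 20.8 to 22.7 percentage points with single retinas left out and 21.9 with the longest transcript. Of the 7 other kinases 2 passed, against 1 without the filter on low counts, 1 without AAV2-GFP replicates 1 and 4, and 0 to 2 with single retinas left out. Of the pathway genes 11 passed, against 6 without AAV2-GFP replicates 1 and 4 and 6 to 14 with single retinas left out. Of all genes 1747 passed, against 985 without AAV2-GFP replicates 1 and 4, 991 to 1912 with single retinas left out and 2254 by DESeq2. The cause was not tested, beyond the smaller number of retinas in the omissions. No pairing of the retinas by replicate number was visible: the correlations of same-numbered deviations were -0.0464, -0.0412, 0.0405, -0.0518 and -0.0351. Those of differently numbered retinas ran from -0.218 to 0.127. Values near 0 cannot show that the retinas were not handled in numbered pairs. With the replicate number as a block, edgeR passed 1085 genes, 1061 of them among the 1747. It passed 0 of the 7 kinases after adjustment and 3 at an unadjusted p under 0.05. Without the block edgeR, DESeq2 and limma-voom each passed 2 of the 7. The block passed 9 pathway genes, without Nudt3 (adjusted p = 0.0572) and Minpp1 (0.0647), and for Ip6k1 and Ppip5k2 it gave 0.104 and 0.0626. No change reversed direction under these settings among the named kinases and pathway genes that passed. With 5 retinas per group, small changes of scarce genes such as Ip6k3 were not detectable.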

Other observations

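Among the enzymes around the kinases, some lists held members that differed from each other, named here after their values were seen. Among the pyrophosphate phosphatases Nudt4 was the most abundant, averaging 155 ± 9.62 CPM in AAV2-GFP retinas and 169.6 ± 9.11 CPM in AAV206-GFP retinas (SD, n = 5), and had a positive log2 fold change of 0.13 (edgeR adjusted p = 0.171) where Nudt3 fell. Nudt10 was low, at 5.41 ± 1.13 and 4.10 ± 0.560 CPM, and Nudt11 measured 13.5 ± 1.22 and 13.4 ± 1.00 CPM. Among the IP3 receptors Itpr1 was the most abundant in CPM, at 71.4 ± 10.8 and 61.1 ± 5.87 CPM (log2 fold change -0.22, edgeR adjusted p = 0.153), while Itpr2 rose and Itpr3 measured 4.94 ± 2.07 and 6.30 ± 1.03 CPM.

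Inpp5d and Plcg2, an inositol lipid phosphatase and a phospholipase C typical of blood-derived cells, had the most negative log2 fold changes of their lists without passing the test. AAV2-GFP replicate 1 was the retina with the highest microglia and macrophage markers and the highest T and NK lymphocyte markers. In it Inpp5d measured 14.6 CPM and Plcg2 7.59 CPM. In the other 4 AAV2-GFP retinas Inpp5d measured 2.94 to 3.23 CPM and Plcg2 1.69 to 2.43 CPM.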
